A study of Mus musculus with 3 samples.

Results

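The genes described here fold newly made proteins in the endoplasmic reticulum (ER) and run the unfolded protein response, the signalling that adjusts this folding machinery to its load. They were fixed by name: 38 gene symbols covering ER chaperones, disulfide enzymes, stress sensors, stress transcription factors, ER-associated degradation and protein translocation. All 38 were found among the 20677 rows of the deposited table, of which 17613 carry a symbol. Skin mast cells were sorted from mice of a mixed C57BL/6xCD1xFVB background at 1 week after birth, and RNA was measured in 3 libraries. All animals carried an EYFP reporter that a Cre recombinase switches on, and all received a pulse of 4-hydroxytamoxifen before birth. The early EMP library (early erythro-myeloid progenitor) came from Csf1rCre/EYFP mice pulsed at embryonic day 8.5, and the late EMP library from Runx1Cre/EYFP mice pulsed at embryonic day 8.5. The fetal HSC library (fetal haematopoietic stem cell) came from Runx1Cre/EYFP mice pulsed at embryonic day 9.5. Each origin has 1 library, so no value here has a replicate error and no test was possible. The early EMP library differs from the others in its Cre driver as well as its origin, and these cannot be told apart. Sex-linked RNA also differed between the libraries, as given below, and cannot be told apart from origin either. The labels do not give the number of animals behind each library. The mast cell proteases stood at the top of each library, with Cma1 at 73918, 63894 and 80925 FPKM, and all 10 mast cell identity markers lay within 2-fold in each comparison.

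Mast cells fill their granules with proteases that are made in the ER, so they are secretory cells with a standing folding load. In the ER lumen, the chaperone BiP (encoded by Hspa5) holds unfolded chains, lectin chaperones read their sugars, and disulfide isomerases join their cysteines. When unfolded chains build up, 3 membrane sensors respond. IRE1 (Ern1) splices the Xbp1 messenger RNA, ATF6 is cut to release a transcription factor, and PERK (Eif2ak3) slows translation while favouring that of ATF4. ATF6 and XBP1 raise chaperone and degradation genes, largely through a promoter sequence called the ER stress element (ERSE). ATF4 and its target CHOP (Ddit3) raise another set, among them Trib3, Chac1 and Ppp1r15a.

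The promoter letters are shown first because the ER stress element is what several of these genes share. Promoter windows from RefSeq (build GRCm38.p6), running from 250 bases before to 50 bases after each annotated start site, were matched by gene identifier for 32 of the 38 members. Sec61a1, Manf, Atf6, Derl1, Ssr2 and Hyou1 had no entry. The element was searched on both strands as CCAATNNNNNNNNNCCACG. An exact match lay in the windows of 9 of the 32 members, which is 28.1%, against 37 of all 27025 genes with a window, which is 0.137%. The members were chosen as genes of this response, so this share is a description of the list. Each match is given below read from its CCAAT end, 5′ to 3′, with the fixed letters in capitals and the free spacer in lower case.
Hspa5: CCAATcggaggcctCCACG
Hsp90b1, distal: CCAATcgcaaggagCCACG
Hsp90b1, proximal: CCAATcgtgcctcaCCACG
Calr: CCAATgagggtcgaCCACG
Canx: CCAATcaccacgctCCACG
Pdia6: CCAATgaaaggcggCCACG
Creld2: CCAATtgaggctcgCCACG
Dnajc3: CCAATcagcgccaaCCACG
Syvn1: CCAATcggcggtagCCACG
Derl3: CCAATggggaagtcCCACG

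The matches began between 212 bases (Hsp90b1, distal; position -212) and 44 bases (Syvn1; position -44) before the start site. The Hspa5 match lay at -65 to -47, on chromosome 2 from 34772025 to 34772043. Those of Calr, Derl3, Creld2 and the proximal one of Hsp90b1 read on the strand opposite to the gene. A related element, ERSE-II, searched as ATTGGNCCACG, was found in Herpud1 (-52 to -42) and Dnajb11 (8 to 18, after the start site), which is 2 of 32 members, and in 12 of 27025 genes (0.0444%). The Herpud1 letters are shown because this gene stood apart in the fetal HSC library.
Herpud1: ATTGGgCCACG
The XBP1 element searched as TGACGTGG was in none of the 32 member windows, where 0.714% of genes have it. The ATF4 element searched as TGATGNAAT was also in none of them, where 1.08% of genes have it. No match says only that these letters are not in the window.

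**Figure D1:**
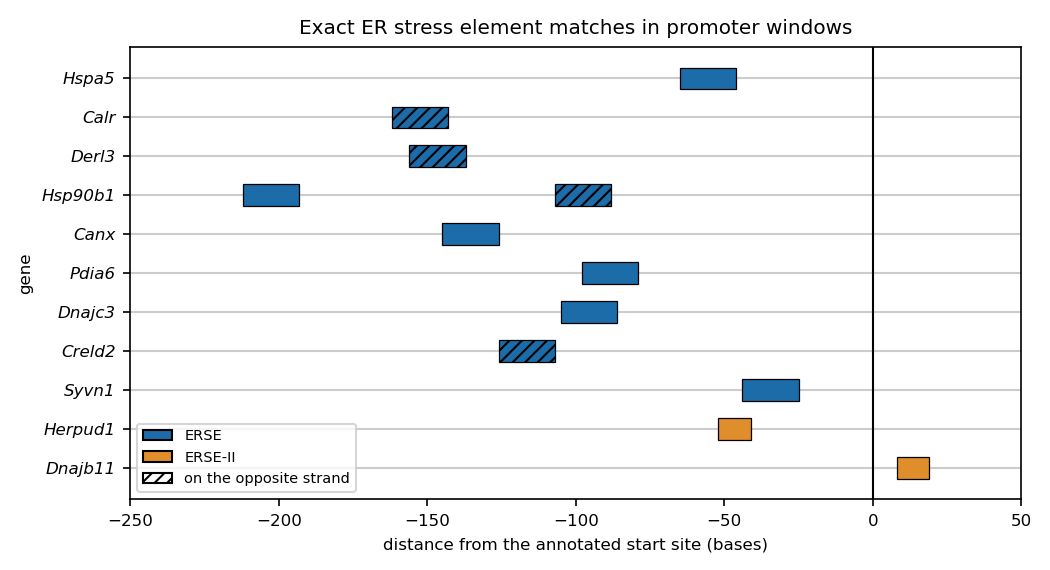
Exact matches to the ER stress element (ERSE, blue) and ERSE-II (orange) in the promoter windows of 11 members; the x axis is the distance in bases from the annotated start site, the y axis the gene, and hatching marks a match on the opposite strand. Hsp90b1 has 2 ERSE matches, and the only match after the start site is that of Dnajb11.

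The 250 bases before the start site are printed for the 3 members with a match whose levels differed most from the early EMP library. They are read along the gene, with the fixed letters of the element in capitals. Where the element lies on the opposite strand, as in Creld2 and the proximal copy of Hsp90b1, it reads here from CGTGG to ATTGG. The Hspa5 stretch is chr2:34771840-34772089 on the plus strand, that of Hsp90b1 is chr10:86705445-86705694 on the minus strand, and that of Creld2 is chr15:88819396-88819645 on the plus strand.
Hspa5: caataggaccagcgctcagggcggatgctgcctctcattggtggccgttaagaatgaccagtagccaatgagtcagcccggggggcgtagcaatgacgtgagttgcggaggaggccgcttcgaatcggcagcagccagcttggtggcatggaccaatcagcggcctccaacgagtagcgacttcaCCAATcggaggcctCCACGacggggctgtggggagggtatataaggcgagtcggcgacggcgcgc
Hsp90b1: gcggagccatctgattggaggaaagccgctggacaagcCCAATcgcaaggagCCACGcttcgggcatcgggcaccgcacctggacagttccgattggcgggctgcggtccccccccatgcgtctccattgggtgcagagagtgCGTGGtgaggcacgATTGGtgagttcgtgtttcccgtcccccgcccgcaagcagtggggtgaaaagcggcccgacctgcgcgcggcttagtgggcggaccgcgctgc
Creld2: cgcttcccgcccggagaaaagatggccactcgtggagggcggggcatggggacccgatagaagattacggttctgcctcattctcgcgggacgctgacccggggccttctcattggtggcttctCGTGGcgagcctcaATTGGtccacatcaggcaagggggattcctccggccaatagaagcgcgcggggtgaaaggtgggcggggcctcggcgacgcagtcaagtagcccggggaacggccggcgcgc

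The 38 members together took 0.464% of the summed FPKM in early EMP, 0.586% in late EMP and 0.600% in fetal HSC. FPKM is a fragment count scaled by transcript length and library size, so levels can be set side by side between genes. The members summed to 2966, 3599 and 3846 FPKM in that order. Ppp1r15a alone made up much of this, and without it the sums were 2076, 2801 and 3034 FPKM. The median member was at 34.4, 49.3 and 49.2 FPKM, against 7.42, 7.89 and 7.19 FPKM for all named genes at 1 FPKM or more in at least 1 library. Most members were therefore abundant, but 8, 7 and 8 of them were under 5 FPKM. In bulk RNA, fewer expressing cells and less RNA per cell cannot be told apart.

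**Figure D2:**
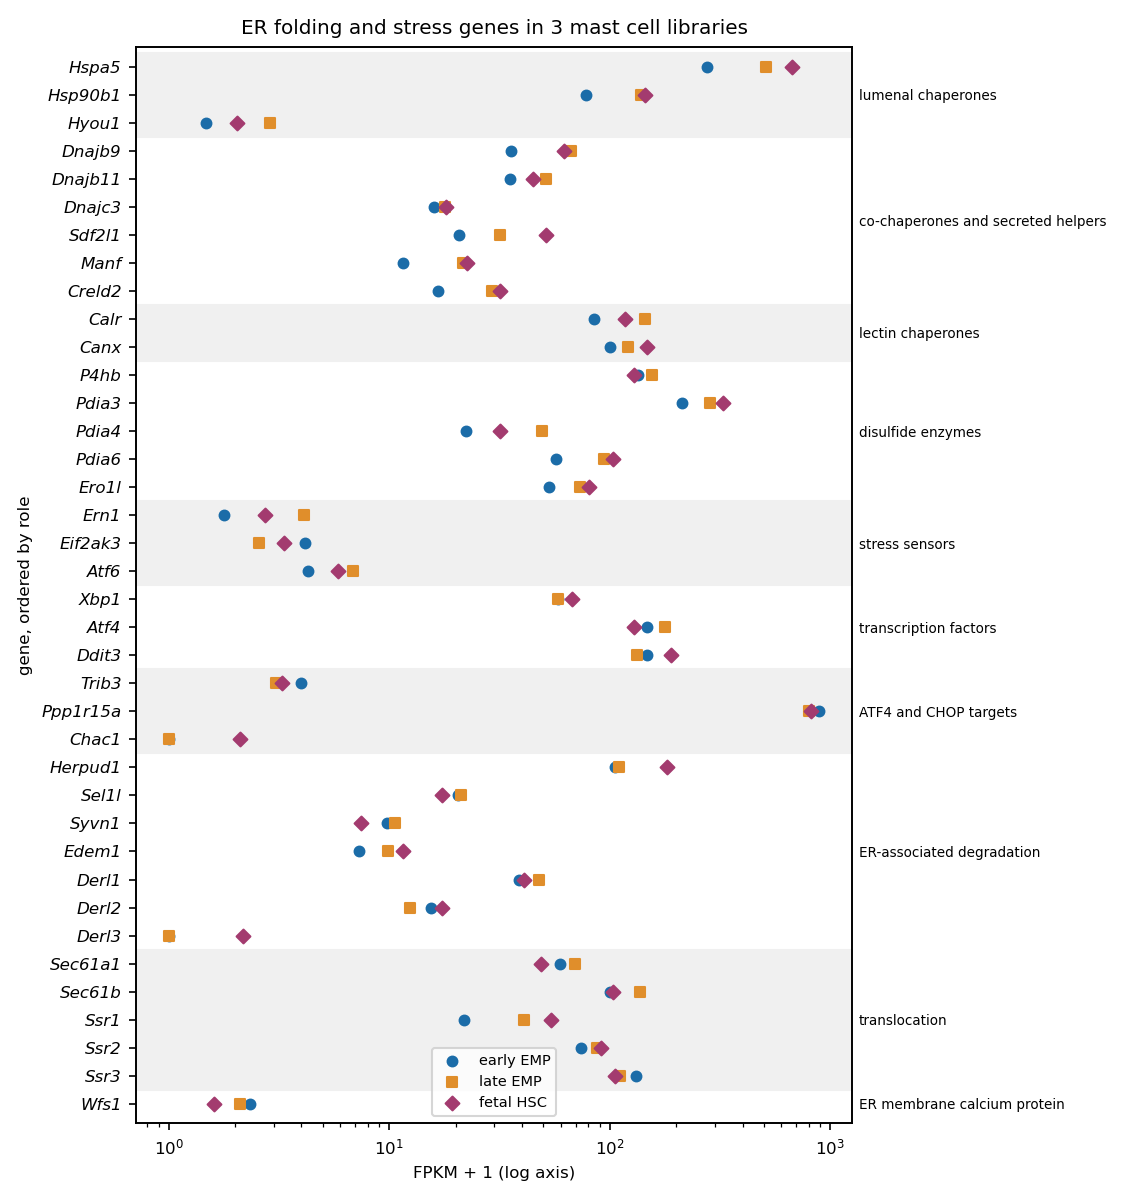
Level of each of the 38 members in the 3 libraries, with FPKM + 1 on a log x axis and genes on the y axis grouped by role (grey bands); each point is 1 library. Hspa5 runs from 275 FPKM in the early EMP library to 671 in the fetal HSC library, while Ppp1r15a lies between 798 and 890. Where only some symbols show, as for Xbp1, Chac1 and Derl3, the early EMP point lies under the late EMP point.

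Differences are given as log2((FPKM + 1) / (FPKM + 1)), which understates the difference of low genes, and 1 on this scale is a 2-fold difference. The comparison of late EMP with early EMP sets these progenitor waves side by side, with the pulse given on the same embryonic day. The Cre driver differed too, as did sex-linked RNA (Xist at 25.6 FPKM in early EMP and 0.53 in late EMP). None of these can be told apart from the wave. The lumenal chaperones Hspa5 and Hsp90b1 and several of their helpers were higher in the late EMP library, by just under 2-fold, while Xbp1, Atf4, Ddit3 and Ppp1r15a lay within 1.5-fold of their early EMP values. At 2-fold, 2 of 38 members were higher (Pdia4 and Ern1) and 0 lower. Among 11529 named genes 7.55% were higher and 4.24% lower at that level, so the members' count at 2-fold is near the background. At 1.5-fold, a level added after the values were seen, 13 members were higher and 1 lower, which is 34.2% and 2.63% of them. The background at 1.5-fold was 17.8% higher and 12.4% lower. The members' median was 0.29, against 0.06 for all named genes.

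Fetal HSC over early EMP sets the day 9.5 pulse beside the same early EMP library, so it is not independent of the comparison above. At 2-fold, 5 of 38 members were higher and 0 lower, where 8.08% of named genes were higher and 8.59% lower. Hspa5, Sdf2l1 and Ssr1 were higher from measured values in both libraries. The other 2, Chac1 and Derl3, were listed at 0 in the early EMP library, and passed the 1 FPKM filter only through the fetal HSC library. Without them 3 of 36 members were higher, which is 8.33% and near the background. At 1.5-fold, 15 members were higher and 0 lower, or 13 of 36 (36.1%) without Chac1 and Derl3, where 16.7% of named genes were higher and 19.3% lower. The members' median was 0.47, or 0.40 without these 2 genes, against -0.03 for all named genes.

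The same reading was made among abundant genes only, since low values scatter more. Of the 28 members with a mean of 10 FPKM or more, 10 were at least 1.5-fold higher in the late EMP than in the early EMP library (35.7%) and 0 lower. Among 4960 named genes at that mean, 11.6% were higher and 6.51% lower. Between fetal HSC and early EMP, 11 of the 28 were higher (39.3%) and 0 lower, where 12.3% were higher and 10.9% lower. At 2-fold, 1 of 28 was higher and 0 lower for late over early EMP (background 4.07% and 1.63%). For fetal HSC over early EMP, 3 of 28 were higher and 0 lower (background 4.64% and 3.49%). For fetal HSC over late EMP, 0 of 28 were 2-fold apart (background 0.766% and 2.14%), and at 1.5-fold 2 were higher and 1 lower (background 4.42% and 9.17%).

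For fetal HSC over late EMP, the Runx1Cre driver was shared and the day of the pulse differed. Sex-linked RNA differed too, with Xist at 0.53 FPKM in late EMP and 52.0 in fetal HSC, and Ddx3y at 38.5 and 0.32. The sex of the animals thus cannot be told apart from origin or pulse day in this pair. Apart from Chac1 and Derl3, listed at 0 in the late EMP library too, 0 of 36 members were 2-fold apart in either direction. The background was 2.71% higher and 5.35% lower. That split depended on the scaling: with libraries rescaled by the median of gene ratios, it was 3.44% higher and 3.96% lower, and the median of all named genes moved from -0.08 to 0.03. The members' median was 0.05, which was -0.0056 with libraries scaled to the same sum and 0.19 with the median of ratios. At 1.5-fold, 4 members were higher (Sdf2l1 and Herpud1 beside Chac1 and Derl3) and 2 lower (Pdia4 and Ern1), with a background of 8.14% higher and 16.4% lower. With the median of ratios, 6 members were higher and 0 lower at 1.5-fold. The background at 1.5-fold was not computed for that scaling, which also moved the median of all named genes up, as given above.

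**Figure D3:**
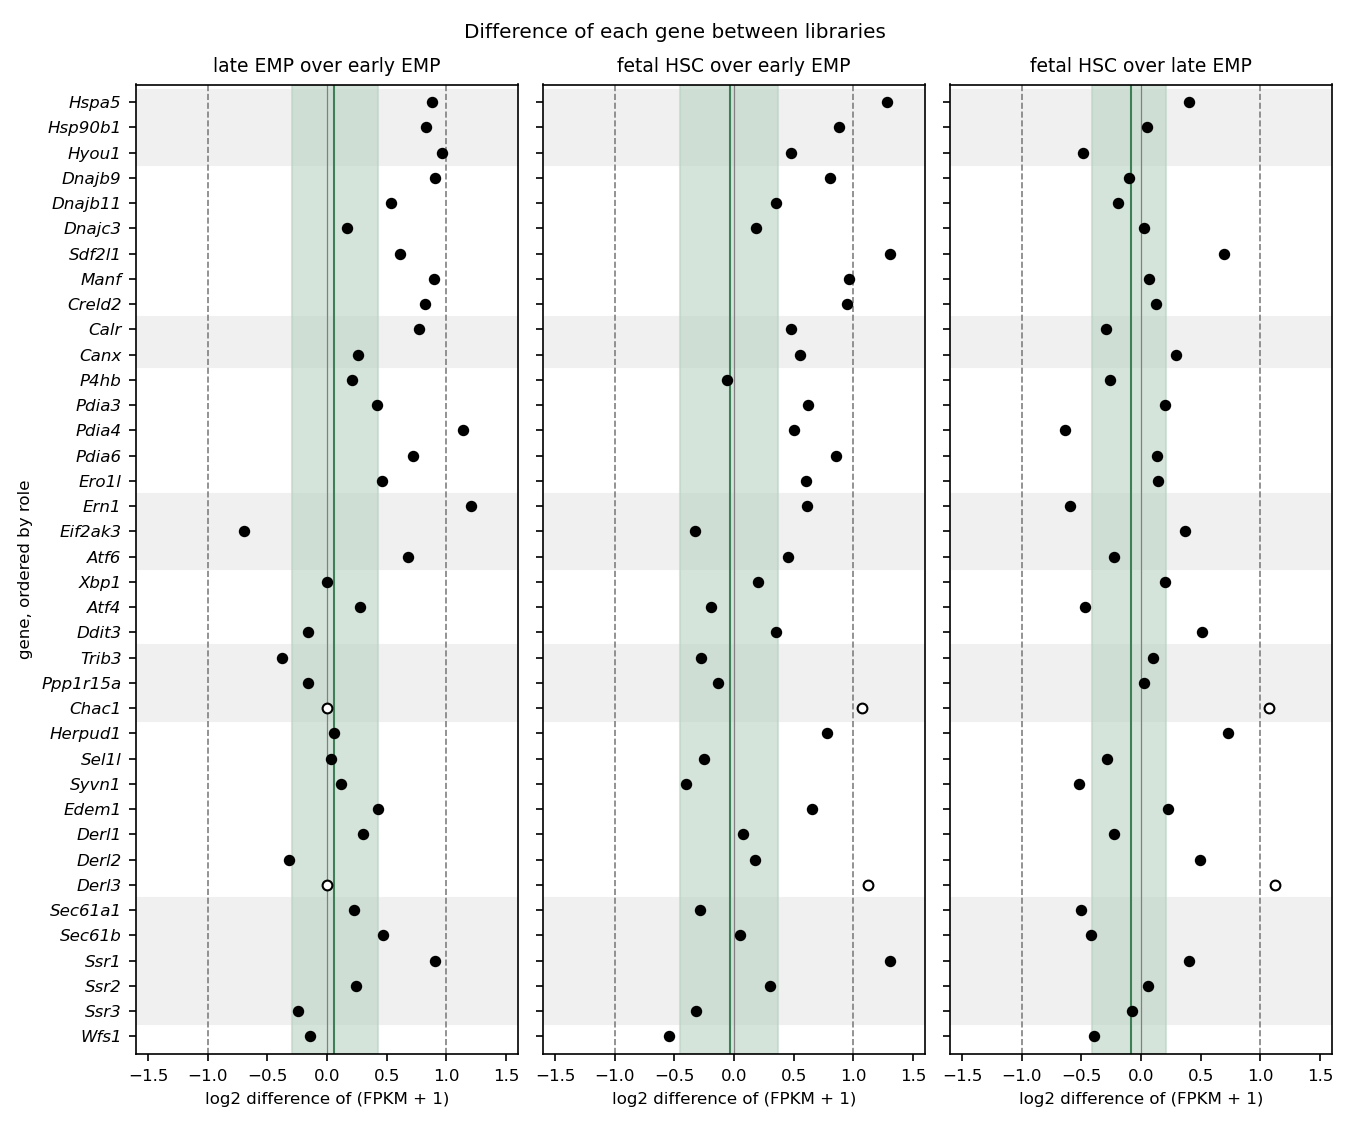
Log2 difference of FPKM + 1 for each member (black points; open points where 1 or both libraries are listed at 0) in the 3 comparisons, 1 panel each; the green band is the middle 50% of all named genes, the green line their median, and dashed lines mark 2-fold. In the comparisons with early EMP the lumenal chaperones and co-chaperones lie right of the band except Dnajc3 and, for fetal HSC, Dnajb11.

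**Figure D4:**
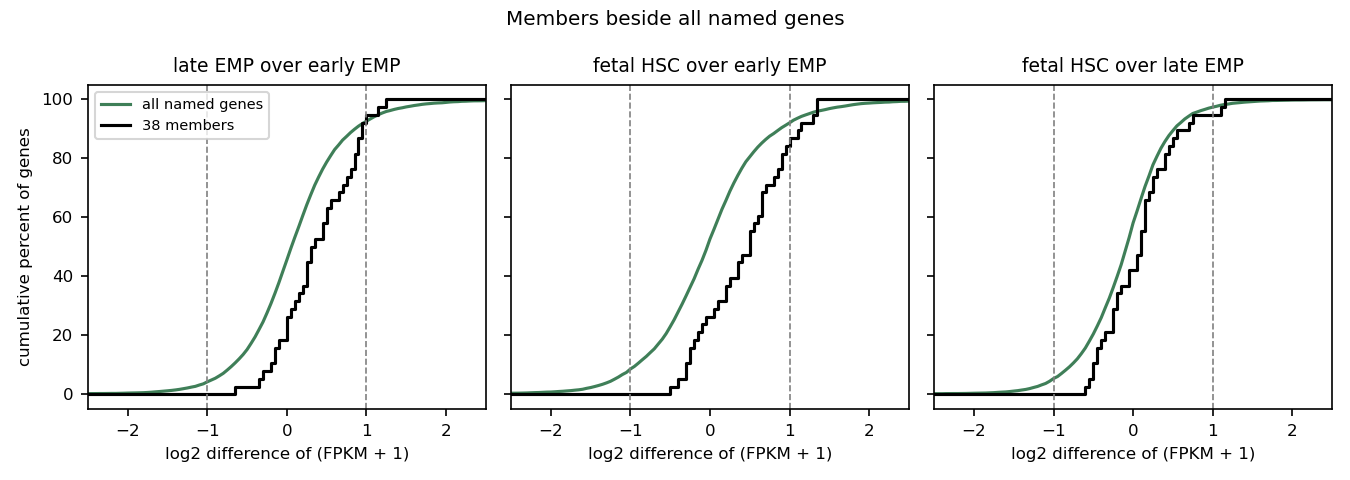
Cumulative percent of genes (y axis) up to each log2 difference of FPKM + 1 (x axis), for the 38 members (black) and all 11529 named genes (green), 1 panel per comparison; dashed lines mark 2-fold. The members' curve lies right of the green curve between 0 and 0.9 in the comparisons with early EMP, with medians of 0.29 and 0.47 against 0.06 and -0.03.

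Hspa5 (chromosome 2, 34772090 to 34776529, GRCm38), the main lumenal chaperone and the regulator that holds the sensors inactive, was at 275 FPKM in early EMP, 507 in late EMP and 671 in fetal HSC. It was thus lowest in the early EMP and highest in the fetal HSC library, with differences from early EMP of 0.88 and 1.28 on the log2 scale. Its rank by level among named genes was 205, 107 and 84. Hsp90b1, which encodes the ER form of HSP90 (GRP94), was at 77.2, 138 and 143 FPKM. The late EMP and fetal HSC libraries differed by only 0.05 in it, and both lay above the early EMP library by 0.83 and 0.88. Hyou1, the nucleotide exchange partner of BiP, was far lower than its partner at 0.47, 1.87 and 1.05 FPKM.

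The 6 helpers of BiP were each lowest in the early EMP library, by differing amounts. Dnajb9 (ERdj4), a J-domain protein that feeds clients to BiP, was at 34.6, 65.6 and 61.2 FPKM. Sdf2l1, which works with J-domain proteins at BiP, was at 19.8, 30.8 and 50.5 FPKM. Its difference between fetal HSC and early EMP was 1.31, and it was among the few members at least 1.5-fold apart between fetal HSC and late EMP (0.69). Manf, a secreted ER stress protein, was at 10.5, 20.5 and 21.5 FPKM. Creld2, another secreted stress-induced protein, was at 15.6, 28.2 and 30.9 FPKM. In both, the late EMP and fetal HSC values lay close together and above early EMP, by 0.90 and 0.97 for Manf and by 0.82 and 0.95 for Creld2. Dnajb11 (ERdj3) was at 34.2, 50.2 and 43.9 FPKM. Dnajc3 (p58IPK), which inhibits PERK, showed the least spread of this group at 14.9, 16.8 and 17.1 FPKM.

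Among lectin chaperones, which retain glycoproteins until they are folded, Calr (calreticulin) was at 83.4, 143 and 117 FPKM. It was highest in the late EMP library. Canx (calnexin) was at 99.2, 119 and 146 FPKM and was highest in the fetal HSC library. Their median differences from early EMP were equal to 2 decimals, 0.52 in both comparisons.

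The disulfide enzymes ranged from little spread to the largest late EMP difference of an abundant member. Pdia4 (ERp72) was at 21.4, 48.4 and 30.7 FPKM. Its difference was 1.14 for late over early EMP, 0.50 for fetal HSC against early EMP and -0.64 against late EMP, so the late EMP library stood above both others. Pdia6, an isomerase that also acts on the sensors, was at 56.3, 93.1 and 102 FPKM. Pdia3, the isomerase that works with calnexin and calreticulin, was the most abundant of the group at 212, 284 and 326 FPKM. Ero1l, the oxidase that recharges the isomerases, was at 52.0, 72.0 and 79.6 FPKM. P4hb, the classical protein disulfide isomerase, was at 133, 154 and 128 FPKM, with the early EMP and fetal HSC values close together.

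The 3 sensors were low in every library, between 0.78 and 5.84 FPKM, and did not share a direction. Ern1, which encodes IRE1, was at 0.78 FPKM in early EMP, 3.12 in late EMP and 1.72 in fetal HSC. Its difference of 1.21 for late over early EMP was 0.49 with a pseudocount of 5 FPKM. Atf6 was at 3.27, 5.84 and 4.84 FPKM. Eif2ak3, which encodes PERK, was at 3.17, 1.57 and 2.32 FPKM and was the only member at least 1.5-fold lower in the late EMP than in the early EMP library. At these levels a few fragments can move a value, and read depth is not given in these sources.

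The stress transcription factors were abundant and lay within 1.5-fold in all 3 comparisons. Xbp1 was at 57.5, 57.5 and 66.3 FPKM. Its 3 transcripts are merged in 1 value, so the form spliced by IRE1 cannot be told apart from the unspliced one. Atf4 was at 147, 178 and 128 FPKM, highest in the late EMP library. Ddit3, which encodes CHOP, was at 147, 131 and 188 FPKM, lowest in the late EMP and highest in the fetal HSC library. ATF4 is controlled largely at translation, which RNA levels do not show.

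Ppp1r15a (GADD34), which returns translation by dephosphorylating eIF2α and is also induced by other stresses, was the most abundant member at 890, 798 and 812 FPKM. Its ranks among named genes were 65, 69 and 70. It was slightly higher in the early EMP library, with differences of -0.16 and -0.13 for the other libraries against it. Trib3, a pseudokinase induced by ATF4 and CHOP, was at 2.98, 2.06 and 2.28 FPKM, again highest in the early EMP library. Chac1, a glutathione-degrading enzyme of the same branch, was listed at 0, 0 and 1.10 FPKM. The group median was -0.16 for late over early EMP and -0.13 for fetal HSC over early EMP, which are the values of Ppp1r15a itself. Trib3 and Chac1 were under 5 FPKM in every library, so the median says little about this branch. The median of the co-chaperones was 0.72 and 0.88. That of the longer list of 18 measured ATF4 targets, described below, was 0.50 and 0.27.

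ER-associated degradation pulls misfolded proteins out of the ER for the proteasome. Herpud1, a membrane scaffold of the ligase complex, was at 105 FPKM in early EMP, 109 in late EMP and 182 in fetal HSC. Both EMP libraries lay together, and the fetal HSC library stood 0.78 and 0.73 above them. The ligase Syvn1 (HRD1) was at 8.81, 9.64 and 6.41 FPKM and its partner Sel1l at 19.6, 20.1 and 16.3 FPKM, both lowest in the fetal HSC library. Edem1, which hands over mannose-trimmed glycoproteins, was at 6.32, 8.83 and 10.5 FPKM. The channel-like Derl1 was at 37.7, 46.7 and 39.8 FPKM and Derl2 at 14.5, 11.4 and 16.4 FPKM. Derl3, the member of that family found mainly in secretory cells, was listed at 0, 0 and 1.18 FPKM. Over the 7 genes, the median was 0.06 for late over early EMP and 0.17 for fetal HSC over early EMP.

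The translocation genes bring new chains into the ER. Sec61a1, the pore, was at 58.5, 68.5 and 47.9 FPKM, and Sec61b at 98.7, 137 and 102 FPKM. Ssr1, a subunit of the translocon-associated complex, was at 20.8, 39.9 and 53.0 FPKM, and its difference of 1.31 for fetal HSC over early EMP equalled that of Sdf2l1 to 2 decimals. Its partners did not share this order: Ssr2 was at 72.8, 86.4 and 90.0 FPKM and Ssr3 at 130, 110 and 104 FPKM, highest in the early EMP library. Wfs1, an ER membrane protein tied to calcium handling, was at 1.33, 1.11 and 0.60 FPKM.

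The 9 members with an ER stress element match had medians of 0.72 for late over early EMP, 0.85 for fetal HSC over early EMP and 0.13 between fetal HSC and late EMP. Without Derl3 the 8 medians were 0.75, 0.70 and 0.09. The 23 members with a window and no match had medians of 0.21, 0.35 and 0.10, and without Chac1 the 22 medians were 0.24, 0.28 and 0.06. Canx, Dnajc3 and Syvn1 have a match and lay within 1.5-fold in all 3 comparisons, and Dnajb9, Sdf2l1, Pdia4 and Ssr1 have none in the window. Whether the element bears on the differences was not tested. Outside the list, 6 measured named genes had a match (Alg12, Ero1lb, Gm6566, Hnrnpa3, Pan2 and Xlr3b), of which Alg12 shares its site with Creld2. None of these 6 was 1.5-fold higher than early EMP in either comparison, and their medians were -0.60 and -0.32.

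Other genes of the secretory pathway were read from related lists, with medians given for the 3 comparisons in the order used above. The 12 oligosaccharyltransferase subunits, which attach sugars to new chains, all lay within 1.5-fold, with medians of 0.14, 0.06 and -0.07. Ost4 was at 378, 361 and 366 FPKM. The 25 other folding enzymes had medians of 0.17, -0.05 and -0.19. At 1.5-fold, 5 were higher and 2 lower in late over early EMP (background 17.8% and 12.4%). For fetal HSC over early EMP, 3 were higher and 6 lower at 1.5-fold (background 16.7% and 19.3%). At 2-fold, 2 were higher and 1 lower in late over early EMP (background 7.55% and 4.24%). In fetal HSC over early EMP, 1 was higher and 2 lower at 2-fold (background 8.08% and 8.59%). Fkbp2, a prolyl isomerase, was at 38.9, 86.7 and 94.3 FPKM, and Fkbp7 ran the other way at 54.8, 14.9 and 24.9 FPKM. Qsox1, a thiol oxidase, was the other one lower in fetal HSC, at 28.3 FPKM in early EMP and 10.3 FPKM in fetal HSC, and Fkbp11 was at 0, 2.76 and 0.80 FPKM. The 19 other translocation and signal peptidase genes had medians of -0.04, 0.07 and -0.08. Of them, 17 lay within 2-fold of early EMP in both other libraries, and the signal peptidase Sec11c was at 303, 376 and 356 FPKM. Srp9, of the signal recognition particle, was at 6.55, 30.5 and 44.0 FPKM and Tram2 at 4.64, 0.31 and 1.59 FPKM.

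The 20 other degradation genes had medians of -0.09, -0.20 and -0.17, with none beyond 2-fold, and Vimp was at 505, 349 and 464 FPKM. The 23 vesicle and retrieval genes, which carry folded cargo out and return ER residents, had medians of 0.04, -0.05 and -0.04. The 1 beyond 2-fold in any comparison, Sec24a, a coat subunit, was at 8.54, 14.2 and 21.2 FPKM and Sec23b at 14.3, 22.8 and 26.6 FPKM. The 11 genes of the eIF2 kinases, eIF2 and eIF2B were all within 2-fold, with medians of -0.10, 0.04 and 0.08. The 4 known substrates of IRE1-dependent RNA decay were within 1.5-fold, and Bloc1s1 was at 113, 108 and 125 FPKM. Of the 7 measured ER-bound transcription factors and proteases, Mbtps1, the protease that makes the first cut in ATF6, was at 40.3, 21.7 and 20.9 FPKM. Atf6b, a relative of ATF6, was at 6.18, 10.3 and 2.61 FPKM. Ern2, the epithelial relative of IRE1, was the only gene of this list at least 2-fold lower than early EMP in both other libraries, at 1.66, 0.07 and 0.06 FPKM.

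The 18 measured ATF4 targets had medians of 0.50, 0.27 and -0.12. At 1.5-fold, 7 were higher and 1 lower in late over early EMP (background 17.8% and 12.4%). In fetal HSC over early EMP, 7 were higher and 2 lower at 1.5-fold (background 16.7% and 19.3%). At 2-fold, 2 were higher and 0 lower in late over early EMP (background 7.55% and 4.24%). Phgdh, of serine synthesis, was at 5.54, 20.8 and 11.3 FPKM and Psat1 at 9.94, 21.0 and 17.7 FPKM. In fetal HSC over early EMP, Atf3 was at least 2-fold higher (25.1 against 6.55 FPKM) and Shmt2 at least 2-fold lower (4.38 against 10.4 FPKM). The background there was 8.08% and 8.59%. The most abundant targets, the amino acid transporter chains Slc3a2 (499, 390 and 409 FPKM) and Slc7a5 (105, 65.5 and 82.9 FPKM), were highest in the early EMP library.

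**Figure D5:**
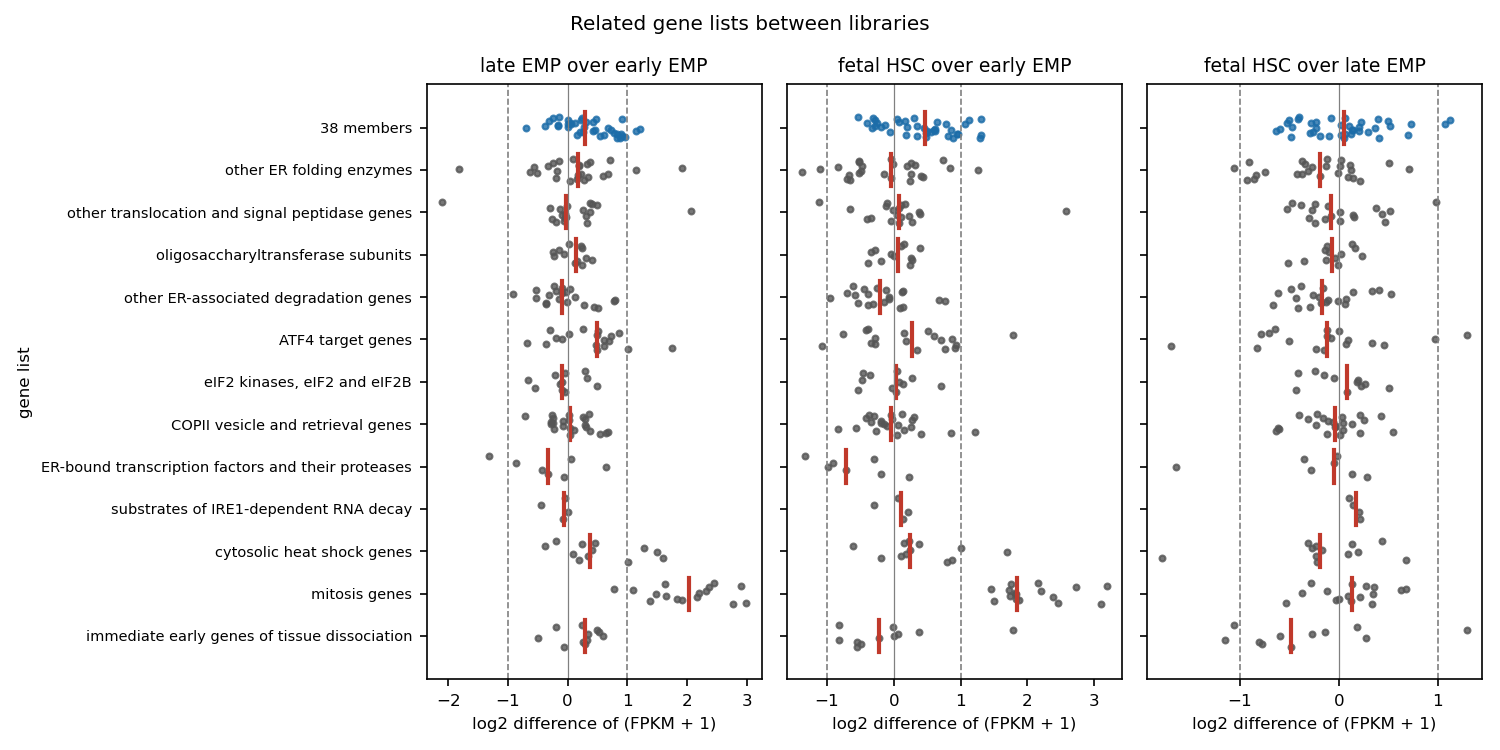
Log2 difference of FPKM + 1 for each gene (points) of the 38 members (blue) and 12 related lists (grey) in the 3 comparisons, 1 panel each with its own x axis range; red bars are medians and dashed lines mark 2-fold. The mitosis list stands furthest right in the comparisons with early EMP, and the oligosaccharyltransferase list stays near 0.

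Several other measures were read beside the members, and their part in the members' differences was not tested. All 16 mitosis genes were at least 1.5-fold higher in both comparisons with early EMP, where 17.8% and 16.7% of named genes were. Their summed level was 44.9, 250 and 264 FPKM. The 12 heat shock genes were mostly cytosolic, with Hspd1 and Hspe1 mitochondrial. At 2-fold, 4 were higher in late than in early EMP (Hspa8, Dnajb1, Hsph1 and Hspa1b), where 7.55% of named genes were. In fetal HSC over early EMP, 2 were higher (Dnajb1 and Hsph1), where 8.08% of named genes were. Hspa8 was at 724, 1460 and 1254 FPKM. The 11 immediate early genes of tissue dissociation, Atf3 among them, had medians of 0.29, -0.22 and -0.48. They summed to 25064.5, 26701.5 and 20031.9 FPKM, with Dusp1 at 7374, 6472 and 7343 FPKM. Whether dissociation bears on the levels of Ppp1r15a, Ddit3 or Atf3 was not tested. Sex-linked RNA also differed, with Xist at 25.6, 0.53 and 52.0 FPKM and Ddx3y at 20.7, 38.5 and 0.32 FPKM. The sex of the animals thus cannot be told apart from origin in any comparison. The 7 genes of granule cargo summed to 216431, 187990 and 218704 FPKM. This sum was lowest in the late EMP library. Of the 7 genes, only Ctsg was lowest in the early EMP library, at 112, 753 and 783 FPKM.

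Markers of other cells differed between the libraries, and their part was not tested either. Counts below are at 2-fold, where 7.55% of named genes were higher and 4.24% lower in late over early EMP. For fetal HSC over early EMP these shares were 8.08% and 8.59%. Granulocyte precursor markers, with 4 of 5 measured genes 2-fold higher and 1 lower in late EMP and 5 of 5 higher in fetal HSC than in early EMP, summed to 3.13, 56.1 and 134 FPKM. The dendritic and Langerhans list, with 2 of 4 and 4 of 4 higher, summed to 22.3, 150 and 1188 FPKM, nearly all from H2-Ab1 and Cd74, while Itgax was listed at 0, 0 and 0.72 FPKM. The melanocyte list, with 4 of 5 higher in both comparisons, summed to 1.59, 13.8 and 40.7 FPKM. T and innate lymphoid markers, with 2 of 6 and 3 of 6 higher and 1 lower in each comparison, summed to 44.8, 63.2 and 75.2 FPKM. The lower one was Cd3e, at 13.5, 0 and 0.63 FPKM. Macrophage markers, with 4 of 7 measured 2-fold lower in fetal HSC than in early EMP and 1 lower and 1 higher in late EMP, ran the other way at 79.7, 55.3 and 23.1 FPKM. Fibroblast markers (2 of 3 and 1 of 3 higher) summed to 1.54, 7.20 and 3.70 FPKM, and keratinocyte markers (0 of 2 and 1 of 2) to 0.68, 2.86 and 5.09 FPKM. Beside Derl3 and Chac1, which were above 0 only in the fetal HSC library, stand the plasma and B cell markers. Of 4 measured, 3 were 2-fold higher there than in early EMP, with Mzb1 at 0, 0 and 4.09 FPKM and a summed level of 12.4, 10.5 and 24.95 FPKM. Ms4a1, a B cell surface protein, was at 0.54, 0 and 0 FPKM.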

How the data were processed

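Per the labels' protocols, RNA was taken from the sorted mast cells with TRIzol, and libraries were made and read at the Beijing Genomics Institute (Illumina HiSeq). Per the file headers, the authors deposited a single table of FPKM values, with a column for each library. The column named ctrl was assigned to early EMP by that sample's description. The submitters' processing notes name Bowtie2 and RSEM, with no versions, and the genome builds GRCm38 and mm10. RSEM divides fragments among similar transcripts, so near-identical copies can exchange signal, and a value of 0 can be a failed estimate. FPKM is a share, so very abundant proteases affect every other value. Unnamed transcripts are merged into 8 of the 38 members. No counting interval is given, since read depth is not given in these sources.

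Members, gene lists and motifs were chosen with earlier results of these data known. Named genes were those at 1 FPKM or more in at least 1 library (11529), with a pseudocount of 1 FPKM; with 1 library per group there was no test. All members are named. Of the other lists, the rule allowed the 2 genes with the highest level and, at 5 FPKM or more, up to 4 with the largest differences, and not all of these are named. Tram2, Fkbp11, Ern2 and markers under 5 FPKM were named after their values were seen. Counting and motif steps were tested on simulated data. RefSeq promoters were matched by gene identifier; protein sequences were not used here. The alternatives tried were a pseudocount of 0.1 or 5 FPKM, no filter, a filter at 5 FPKM, and 3 rescalings. The 1.5-fold level, the background at a mean of 10 FPKM and leaving out Chac1 and Derl3 were added once the values had been seen. The software was matplotlib 3.10.9, pandas 2.3.3, numpy 2.4.6 and Python 3.11.15.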

Additional observations from a re-analysis of the deposited data

How the results depend on the processing

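With 1 library per origin no spread could be measured, and no paired analysis was possible because each group has only 1 library. The median of the members stayed above 0 in both comparisons with early EMP under every alternative run. It was 0.42 for late over early EMP with the filter at 5 FPKM and 0.29 for fetal HSC over early EMP with a pseudocount of 5 FPKM. For fetal HSC over late EMP it turned to -0.0056 with libraries rescaled to the same summed FPKM and was 0.19 with the median of ratios. Counts at 2-fold are small and in part rested on low genes (Ern1, Chac1 and Derl3). For late over early EMP 1 member remained called with a pseudocount of 5 FPKM, where 1.73% of named genes were higher and 0.772% lower. With the filter at 5 FPKM 1 remained, against 6.02% and 2.91%. For fetal HSC over early EMP the count was 9 (8 higher and 1 lower) with a pseudocount of 0.1 FPKM (background 12.4% and 13.7%). It was 3 with a pseudocount of 5 FPKM (2.10% and 1.32%) and 3 with the filter at 5 FPKM (6.40% and 6.05%). Without Chac1 and Derl3 it was 3 (8.08% and 8.59%). For fetal HSC over late EMP it was 0 under each of those 3 settings. The background there was 0.468% and 0.746%, 1.61% and 3.71%, and 2.71% and 5.35%. At 1.5-fold, a pseudocount of 5 FPKM gave 9 members for late over early EMP and 2 for fetal HSC over late EMP, where the filter at 5 FPKM gave 3. That filter tests fewer genes, and a larger pseudocount shrinks low ones by construction. The background at 1.5-fold was not computed under the alternatives. Without the 50 most abundant genes in the sum, the members' share was 0.964%, 1.13% and 1.22%. Members under 5 FPKM are limited by depth.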
